A study of Mus musculus with 9 samples.

Results

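The translation initiation factors (eIF) and elongation factors (eEF) of mouse embryonic fibroblasts were followed in polyA+ RNA-Seq. They are the 60 rows, of 15184 listed genes, whose symbol starts with Eif or Eef and a digit, other than the eIF2 kinases (*Eif2ak*), a rule that uses names and no measured values. WT fibroblasts of mid-gestation embryos carried lentiviral vectors of the synergistic activation mediator (SAM), in which a catalytically dead Cas9 bound to transcriptional activators is brought to a promoter by a guide RNA. The comparison was made between 3 libraries labelled empty vector and 6 labelled Hnrnpk_SAM, the latter made up of 3 libraries from line SAM1 and 3 from line SAM2, both built to raise endogenous *Hnrnpk*, the gene of an RNA-binding protein. The methods describe antibiotic selection of the transduced cells. The guide that each line carried, and whether the libraries of a line came from separate cultures, were not given in the sources used here, so p-values measure only the spread between libraries, which may be technical.

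Between 41759636 and 49026626 reads fell on the listed genes of a library, and the 60 factors took between 1.74% and 1.86% of the normalized counts, that is, of reads divided by the size factor of the library. *Hnrnpk*, the targeted gene, read 25058, 26098 and 26164 normalized counts in empty vector, 24102, 24044 and 23619 in SAM1 and 26608, 26859 and 26221 in SAM2. The libraries labelled SAM1 lay below all empty vector libraries (log2 fold change -0.11 ± 0.027, mean ± SE, adjusted p = 0.00252) and those labelled SAM2 lay just above them (0.044 ± 0.027, adjusted p = 0.159). With the lines pooled the value was -0.032 ± 0.054 (adjusted p = 0.642). In the normalized counts as deposited, the only scaling in which this gene was examined, the level of *Hnrnpk* thus goes against the SAM1 label. It was also not called higher in SAM2, so neither label is borne out by these RNA values. The study itself reports higher *Hnrnpk* RNA by qRT-PCR and higher protein by Western blot in its SAM fibroblasts. Falls of the size seen for *Hnrnpk* in SAM1 turned for some factors under other scalings, as given below. Every direction below is one between libraries as they are labelled. All 14 fibroblast markers examined were listed, including *Vim*, *Thy1* and *Col1a1*, and their summed level ran from 1090000 to 1190000 normalized counts in empty vector, from 923000 to 982000 in SAM1 and from 1210000 to 1250000 in SAM2. Of the 14, 10 were called lower and 3 higher in SAM1, and 7 lower and 3 higher in SAM2, with *Dcn* at a log2 fold change of -2.12 and -2.22, *Pdgfra* at -0.60 and -0.81 and *Lum* at -1.98 and -0.018. The 3 higher in SAM1 were *Pdgfrb* (0.94), *S100a4* (1.30) and *Vim* (0.55). Those in SAM2 were *Pdgfrb* (0.54), *Col1a1* (0.39) and *Col3a1* (0.065). Of all listed genes, 37.3% were called higher and 36.9% lower in SAM1, and 35.2% and 35.3% in SAM2. Of the markers of other cell types, 2 of 6 epithelial, 1 of 4 blood, 1 of 4 muscle and neural and 1 of 3 pluripotency markers were listed. Of these *Cdh1* and *Krt8* were higher in SAM1 (1.38 and 0.92) and not called in SAM2 (-0.10 and 0.45), while *Cd68* (0.50 and 0.60), *Tubb3* (1.57 and 1.08) and *Nanog* (1.22 and 1.59) were higher in both lines. All 4 endothelial markers were listed. Their sum ran from 301 to 357 in empty vector, from 4610 to 4990 in SAM1 and from 638 to 689 in SAM2. Nearly all of it in SAM1 was *Kdr*, with a mean of 4693 ± 194 (SD, n = 3). The 4 did not move together: *Kdr* gave 4.48 and 1.35, *Pecam1* 1.14 and -0.10, *Tek* -0.30 and 0.89 and *Cdh5* -0.26 and -0.63. The part of all these markers in the results below was not tested.

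Translation begins when the eIF2 complex brings the initiator tRNA to the small ribosomal subunit, eIF1, eIF1A and eIF3 keep that subunit ready to scan, and the eIF4 proteins bind the mRNA cap and unwind the leader. eIF2B recharges eIF2 with GTP, eIF5 and eIF5B complete the choice of the start codon and the joining of the subunits, and eIF6 keeps free large subunits apart from small ones. The eEF1 and eEF2 proteins then carry each elongation step, and eIF5A, which bears the amino acid hypusine, relieves stalling. In dividing cells such as fibroblasts these factors are expressed at all times, and many of them are controlled by phosphorylation of the protein.

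Many mRNAs of the translation apparatus start with a TOP tract, a C followed by a run of pyrimidines, through which their translation is tied to growth signals, and the hexamer CACGTG is the E-box that Myc and related factors bind. Of the 60 factors, 47 had a promoter entry in RefSeq (GRCm38.p6, with 250 bases before and 50 after the start), covering 61 starts. A TOP tract, taken as a C at the annotated start followed by at least 4 bases each C or T, was found in 2 of 47 factors (4.26%) and in 3.01% of the 11165 listed genes with an entry. Only the annotated base itself was examined, so a tract that begins some bases away was not counted. A factor without a match may therefore still carry a TOP tract. CACGTG, which reads the same on both strands, was found in the window of 14 of 47 factors (29.8%) and in 11.4% of those 11165 genes. The sequences below are windows of 30 bases on the gene's strand, read 5′ to 3′ from GRCm39 after an exact match. They are both TOP tracts and 5 of the E-boxes, chosen because the levels of these genes are described further on, and capitals mark the pyrimidine run or the hexamer.
Eif2s3x, TOP, chrX:93256238-93256267, minus strand: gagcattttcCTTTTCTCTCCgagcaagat
Eif3f, TOP, chr7:108533612-108533641, plus strand: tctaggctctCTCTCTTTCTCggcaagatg
Eef2, E-box, chr10:81012410-81012439, plus strand: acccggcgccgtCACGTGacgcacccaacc
Eif4a1, E-box, chr11:69563421-69563450, minus strand: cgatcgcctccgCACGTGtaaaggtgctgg
Eif4e, E-box, chr3:138232789-138232818, plus strand: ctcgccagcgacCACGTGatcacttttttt
Eif4g1, E-box, chr16:20491411-20491440, plus strand: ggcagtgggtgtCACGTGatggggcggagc
Eif1b, E-box, chr9:120321636-120321665, plus strand: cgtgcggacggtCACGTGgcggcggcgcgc
The pyrimidine runs of *Eif2s3x* and *Eif3f* held 11 bases each. Counted from the annotated start, the hexamer began at position -43 in *Eef2*, -54 in *Eif4g1*, -24 in *Eif1b*, -189 in *Eif4a1* and -228 in *Eif4e*. The other E-box holders were *Eef1akmt4*, *Eef1aknmt*, *Eef2k*, *Eif3a*, *Eif3f*, *Eif3k*, *Eif4h*, *Eif5a* and *Eif5a2*. *Myc* itself, a transcription factor that binds this hexamer, read 14778, 15113 and 14628 normalized counts in empty vector, 9389, 9524 and 9466 in SAM1 and 13969, 14198 and 14210.2 in SAM2. Its level was lower in SAM1 than in every other library (log2 fold change -0.65 ± 0.025, adjusted p = 5.53e-11) and slightly below empty vector in SAM2 (-0.071 ± 0.025, adjusted p = 0.0218). *Myc* too was examined in the deposited scaling only, so the small SAM2 value may depend on it. Of the 14 factors with the hexamer 4 were called higher and 9 lower in either line, with a median log2 fold change of -0.15 in SAM1 and -0.20 in SAM2, and of the 33 without it 7 were higher and 21 lower in SAM1 (median -0.17) and 8 higher and 20 lower in SAM2 (median -0.13). The shares among all listed genes were 37.3% higher and 36.9% lower in SAM1, and 35.2% and 35.3% in SAM2.

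On the deposited scaling, most of the factors were lower in each line than in empty vector, by small amounts. In SAM1, 38 of 60 were called lower and 13 higher (limma, adjusted p below 0.05), with a median log2 fold change of -0.18 beside 0.0093 for all listed genes. In SAM2, 36 were lower and 14 higher, with a median of -0.14 beside -0.0015. The calls have to be read against a background in which most of the transcriptome was called: 74.3% of all genes in SAM1, 37.3% higher and 36.9% lower, and 70.5% in SAM2, 35.2% higher and 35.3% lower. The share of factors called lower was thus 63.3% in SAM1 and 60% in SAM2. The SAM1 libraries lay wholly below empty vector for 37 factors and wholly above for 11 (backgrounds 37.1% and 37.3% of genes), and those of SAM2 wholly below for 37 and wholly above for 15 (36.8% and 36.7%).

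**Figure D1:**
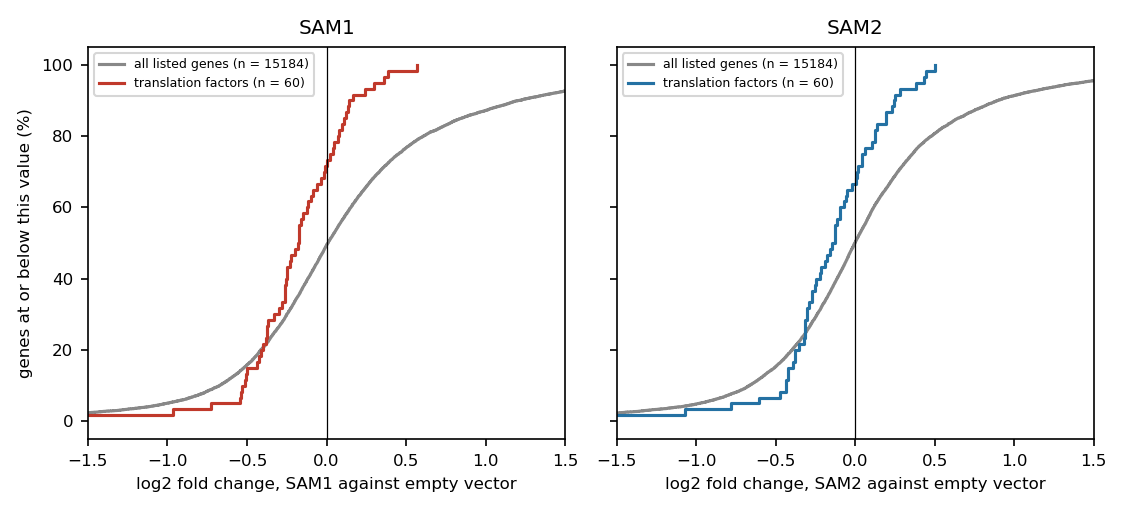
Cumulative share of genes (vertical axis, in %) at or below each log2 fold change against empty vector (horizontal axis) for the 60 translation factors (coloured) and all 15184 listed genes (grey), in SAM1 on the left and SAM2 on the right. The coloured line crosses the 50% level left of zero, at -0.18 in SAM1 and -0.14 in SAM2, while the grey line crosses it close to zero, at 0.0093 and -0.0015. Values beyond the drawn range, *Eif4e3* among them, are not shown.

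The balance of these calls depended on how the libraries were scaled. Scaled to equal sums, which moved the median of all genes to 0.15 in SAM1 and 0.10 in SAM2, 19 factors were higher and 24 lower in SAM1 and 20 higher and 28 lower in SAM2, where 27% and 27.2% of all genes were called lower. After quantile normalization, 21 were higher and 29 lower in SAM1 and 18 higher and 28 lower in SAM2, where 39.5% and 37% of all genes were called lower. Measured from the median of all genes, 44 of 60 factors lay below it in SAM1 under the deposited scaling and under equal sums, and 33 after quantile normalization. For SAM2 these counts were 40, 40 and 32. Part of the position of the factors was shared with their level: 31 of the 60 belonged to the most expressed 10% of listed genes, whose own median was -0.11 in SAM1 and -0.083 in SAM2. Relative to the median of the genes in its own 10% of expression, 38 of 60 factors lay lower in SAM1, with a median difference of -0.0998 on the log2 scale, and 40 of 60 in SAM2, with -0.0744.

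Called lower in both lines were 31 factors, 51.7% of them beside 26.4% of all genes, and called higher in both were 9, or 15% beside 25.9%. Another 7 were called in opposite directions (11.7% beside 5.83%), and 6 in neither line (10% beside 13.4%). These shares were counted on the deposited scaling alone. Of the 7, only *Eif4g3* kept both calls under every other scaling and test and without any single library. Several of the 31 lost or turned a call under other scalings, as listed at the end. Both comparisons share the empty vector libraries, so these patterns are not independent. The 6 called in neither line were *Eef1b2*, *Eef1d*, *Eef1g*, *Eif2a*, *Eif2b5* and *Eef1akmt3*, the first 3 of which encode the nucleotide exchange complex of eEF1A. With both lines pooled, as the study compared them, 8 factors were higher and 30 lower than in empty vector, where 53.9% of all genes were called (26.8% higher and 27% lower), and the median was -0.15. That split became 14 higher and 20 lower with equal sums (18.7% of all genes lower) and 12 higher and 22 lower after quantile normalization (28.7% of all genes lower).

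**Figure D2:**
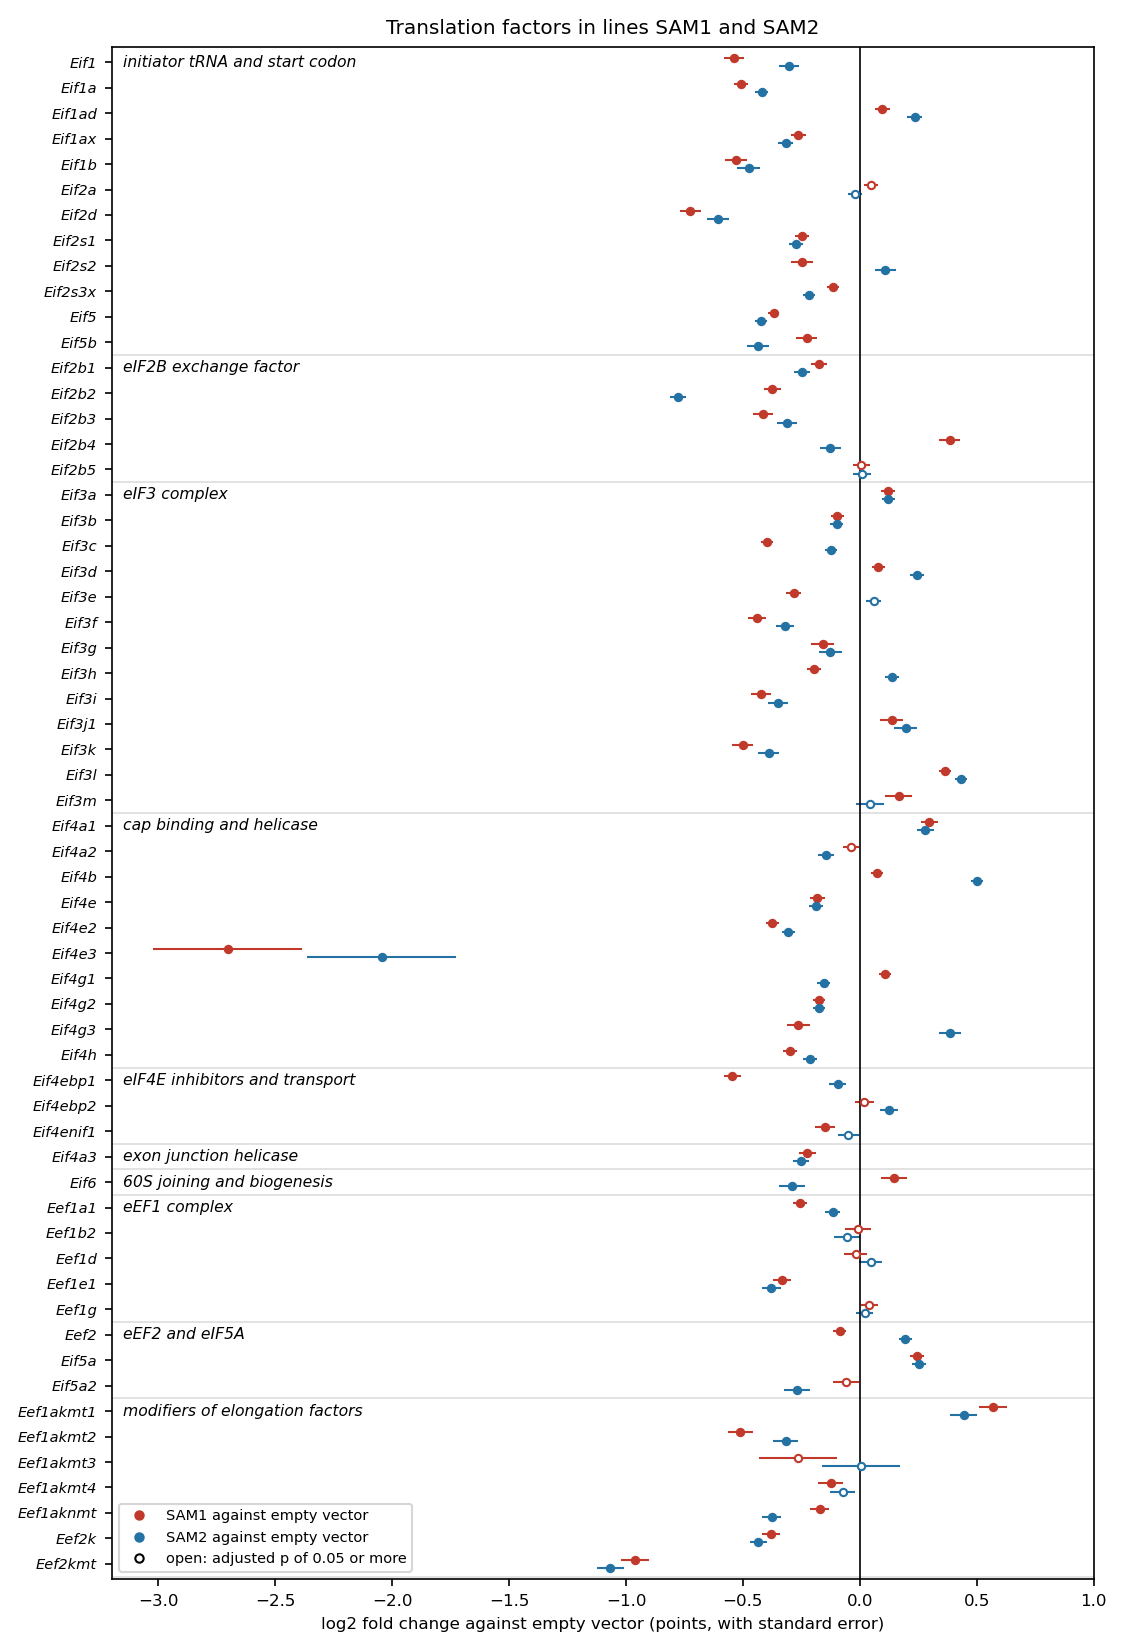
Log2 fold change against empty vector (horizontal axis) of each of the 60 factors (rows, grouped by role) in SAM1 (red) and SAM2 (blue). Points are means over 3 libraries a group, bars are standard errors of the limma fit, and open points have an adjusted p of 0.05 or more. The other points run from -1.07 to 0.57, and *Eif4e3* lies apart at -2.70 and -2.05.

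Most genes that bring the initiator tRNA and set the start codon were lower in both lines. Of 12 such factors 10 were called lower and 1 higher in the libraries labelled SAM1, and 9 lower and 2 higher in those labelled SAM2, with medians of -0.26 and -0.31. Among all listed genes 36.9% were called lower and 37.3% higher in SAM1, and 35.3% and 35.2% in SAM2. *Eif2d*, which can deliver tRNA to the ribosome without eIF2 and acts in recycling, lies at chr1:131080893-131115395, plus strand (GRCm39, as are all positions here). It read 2276, 2372 and 2232 normalized counts in empty vector, 1381, 1393 and 1387 in SAM1 and 1605, 1403 and 1511 in SAM2. All SAM libraries lay far below empty vector, at a log2 fold change of -0.72 ± 0.047 in SAM1 (adjusted p = 1.02e-08) and -0.61 ± 0.047 in SAM2 (adjusted p = 7.83e-08). *Denr* and *Mcts1*, whose products form a heterodimer related to eIF2D, also fell, *Denr* with log2 fold changes of -0.33 and -0.49 and *Mcts1* of -0.53 and -0.45 in SAM1 and SAM2. *Mcts2*, a paralog of *Mcts1*, rose in SAM1 (0.64, adjusted p = 3e-05) and gave -0.19 in SAM2 (adjusted p = 0.0767). *Eif2d* shares 2245 exon bases with the antisense gene *Rassf5*, which gave a log2 fold change of -0.51 in SAM1 (adjusted p = 5.98e-07) and -0.0043 in SAM2 (adjusted p = 0.944). The kit kept strand, but the strand setting of the counting was not given, so reads of such partners may not be fully told apart. This limit is wider than *Eif2d*: 22 of 59 factors share exon bases with a listed gene on the other strand. Among them are *Eif2b1* (2484 bases with *Ddx55*), *Eif3d* (2455 with *Gm17638*), *Eif3m* (2084 with *Ccdc73*), *Eif5b* (1959 with *Rev1*) and *Eif3j1* (1480 with *Spg11*).

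eIF1 and eIF1A hold the scanning ribosome open until the start codon is met. *Eif1* read 16285, 17883 and 16752 normalized counts in empty vector, 11553, 12401 and 11158 in SAM1 and 13836, 14088 and 13336 in SAM2. Its 9 libraries fell into 3 levels without overlap, highest in empty vector and lowest in SAM1 (log2 fold change -0.54 ± 0.043 in SAM1 and -0.30 ± 0.043 in SAM2, adjusted p = 9.29e-08 and 2.93e-05). The paralog *Eif1b*, an E-box holder shown above, read 1955, 2119.7 and 2033 normalized counts in empty vector, 1428, 1483 and 1323 in SAM1 and 1449, 1514 and 1427 in SAM2. Its SAM1 and SAM2 libraries overlapped each other and lay below all empty vector libraries (-0.53 ± 0.048 and -0.48 ± 0.048, adjusted p = 3.21e-07 and 1.12e-06). *Eif1a* read 11170.3, 11829.7 and 11769 normalized counts in empty vector, 8052, 8258 and 8135 in SAM1 and 8699, 8600.0 and 8687 in SAM2. Here too the lines were low and tightly grouped, at -0.51 ± 0.029 and -0.42 ± 0.029 (adjusted p = 2.57e-09 and 2.39e-08), and its X-linked homolog *Eif1ax* fell with log2 fold changes of -0.26 and -0.32. *Eif1ad*, an eIF1A domain gene, was the only factor of this group called higher in both lines, at 0.10 in SAM1 (adjusted p = 0.0157, and 0.0619 without empty vector replicate 1 or 0.0503 without SAM1 replicate 2) and 0.23 in SAM2. Reads of *Eif1* are uncertain, since 16 other annotated genes, 13 of them pseudogenes, matched its transcript at 95% identity or more over at least 100 bases.

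Among the 3 subunits of eIF2, *Eif2s1* encodes the alpha subunit, whose phosphorylation lowers initiation under stress. It read 5349, 5287 and 5596 normalized counts in empty vector, 4589, 4609 and 4471 in SAM1 and 4459, 4548 and 4425 in SAM2. All 6 SAM libraries lay below the 3 of empty vector, at -0.25 ± 0.031 in SAM1 and -0.27 ± 0.031 in SAM2 on the log2 scale (adjusted p = 7.2e-06 and 3.25e-06). *Eif2s3x*, the gamma subunit with the TOP tract shown above, had a log2 fold change of -0.11 in SAM1, which turned to 0.0279 with equal sums and to 0.0051 after quantile normalization, and -0.22 in SAM2. *Eif2s2*, the beta subunit, moved apart in the lines and is described below. *Eif5*, which makes eIF2 hydrolyse GTP, read 26926, 27769.7 and 27773 normalized counts in empty vector, 21252, 21235 and 21383 in SAM1 and 20486, 20569 and 20456 in SAM2. Libraries of a line differed little and stood below empty vector (-0.37 ± 0.024 and -0.42 ± 0.024, adjusted p = 1.3e-08 and 4.38e-09). *Eif5b*, the GTPase of subunit joining, read 12031, 13358 and 12249 normalized counts in empty vector, 10064, 11446 and 10636 in SAM1 and 9196, 9285 and 9294 in SAM2. SAM2 was lowest and SAM1 between (-0.23 ± 0.046 and -0.44 ± 0.046, adjusted p = 0.000593 and 1.9e-06), and in SAM1 the call was lost with equal sums (-0.086, adjusted p = 0.132) and after quantile normalization (-0.080, adjusted p = 0.158).

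The 5 subunits of eIF2B did not move together. In SAM1 3 were lower and 1 higher, and in SAM2 4 were lower, with fold changes from -0.41 to 0.38 in SAM1 and from -0.78 to 0.0096 in SAM2 on the log2 scale. The background of all listed genes was 36.9% lower and 37.3% higher in SAM1, and 35.3% and 35.2% in SAM2. *Eif2b2*, the beta subunit (chr12:85266207-85273402, plus strand), read 4969, 5323 and 5069 normalized counts in empty vector, 3828, 4059 and 3964 in SAM1 and 2961, 2950.4 and 3039.7 in SAM2. Its libraries formed 3 separate levels, at -0.37 ± 0.035 in SAM1 and -0.78 ± 0.035 in SAM2 (adjusted p = 4.09e-07 and 3.55e-10), and the difference between lines was -0.40 ± 0.035 (adjusted p = 4.5e-07). *Eif2b4*, the delta subunit (chr5:31344902-31350774, minus strand), read 1337, 1341 and 1245 normalized counts in empty vector, 1639, 1780.5 and 1703 in SAM1 and 1228, 1164 and 1203 in SAM2. SAM1 was above and SAM2 below every empty vector library (0.38 ± 0.045 and -0.13 ± 0.045, adjusted p = 3.92e-06 and 0.0228). The fall in SAM2 lost its call with equal sums (-0.022, adjusted p = 0.68) and when 1 of 4 libraries was left out (empty vector replicate 1 or 2, or SAM2 replicate 2 or 3, adjusted p from 0.0503 to 0.0911). *Eif2b1*, the alpha subunit, fell with log2 fold changes of -0.17 and -0.25 and *Eif2b3*, the gamma subunit, with -0.41 and -0.31 in SAM1 and SAM2. *Eif2b5*, the catalytic epsilon subunit, gave 0.0061 and 0.0096, with 95% intervals from -0.075 to 0.088 and from -0.072 to 0.091.

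In the eIF3 complex, which binds the small subunit and the eIF4 proteins, 13 subunit genes were listed. In SAM1 5 were higher and 8 lower, and in SAM2 5 were higher and 6 lower. Log2 fold changes ran from -0.50 to 0.36 in SAM1 and from -0.39 to 0.43 in SAM2. For all listed genes the calls were 37.3% higher and 36.9% lower in SAM1, and 35.2% and 35.3% in SAM2. *Eif3l* (chr15:78959372-78978606, plus strand) read 11969, 11994 and 12030.4 normalized counts in empty vector, 15510.1, 15556 and 15207 in SAM1 and 16246, 16469 and 15825 in SAM2. Libraries of empty vector, SAM1 and SAM2 did not overlap (0.36 ± 0.026 and 0.43 ± 0.026, adjusted p = 2.54e-08 and 5.87e-09). *Eif3c*, a core subunit, read 22969.7, 21900.0 and 22504 normalized counts in empty vector, 17308, 16744 and 17124 in SAM1 and 20688, 20541 and 20591 in SAM2. SAM1 was lowest and SAM2 lay between (-0.40 ± 0.027 and -0.12 ± 0.027, adjusted p = 1.56e-08 and 0.00099), and the SAM2 value was not called with equal sums (-0.020, adjusted p = 0.49) and turned to 0.0233 after quantile normalization. *Eif3m* read 2431, 2925 and 2706 normalized counts in empty vector, 2912, 3202 and 2914 in SAM1 and 2721, 2725 and 2840.2 in SAM2. Empty vector overlapped each line, and the rise in SAM1 (0.17 ± 0.059, adjusted p = 0.0211) lost its call without empty vector replicate 1 (adjusted p = 0.096) or without SAM1 replicate 2 (adjusted p = 0.0786), while SAM2 gave 0.043 ± 0.059 (adjusted p = 0.526).

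*Eif3a*, a core scaffold subunit, rose on the log2 scale by 0.12 in SAM1 and 0.12 in SAM2, *Eif3d*, which can itself bind a cap, by 0.079 and 0.24, and *Eif3j1*, the loosely bound subunit, by 0.14 and 0.20. In SAM1 the call of *Eif3d* was lost without empty vector replicate 3, SAM1 replicate 1 or SAM1 replicate 2 (adjusted p = 0.0909, 0.0593 and 0.0906), and that of *Eif3j1* without empty vector replicate 2, SAM1 replicate 2 or SAM1 replicate 3 (0.0668, 0.0515 and 0.0921). *Eif3k* fell with log2 fold changes of -0.50 and -0.39, *Eif3f* with -0.44 and -0.32, *Eif3i* with -0.42 and -0.35 and *Eif3g* with -0.16 and -0.13. The calls of *Eif3g* were lost with equal sums and after quantile normalization in both lines (adjusted p from 0.349 to 0.787), without SAM1 replicate 3 in SAM1 (0.0512), and in SAM2 without empty vector replicate 2 or 3 or SAM2 replicate 1 or 3 (0.0562 to 0.133). *Eif3b*, the scaffold that holds *Eif3g* and *Eif3i* products, fell with a log2 fold change of -0.10 in both lines, and its direction turned with equal sums (0.0446 and 0.0056) and after quantile normalization (0.0966 and 0.0405). *Eif3e* was called lower in SAM1 (-0.28, adjusted p = 2.92e-06) but not in SAM2 (0.059, adjusted p = 0.114), and the lines differed by 0.34 ± 0.032 (adjusted p = 1.02e-06). Between the lines, 6 subunits were called higher in SAM2 than in SAM1 (*Eif3c*, *Eif3d*, *Eif3e*, *Eif3f*, *Eif3h* and *Eif3l*), and the SAM2 libraries lay wholly below those of SAM1 for *Eif3m* (-0.12, adjusted p = 0.0884). The line difference of *Eif3f* was not called with equal sums (adjusted p = 0.11), after quantile normalization (0.114) or without SAM1 replicate 1 (0.0742), SAM1 replicate 3 (0.0762) or SAM2 replicate 2 (0.0544). That of *Eif3l* was not called with equal sums (0.336), turned to -0.0048 after quantile normalization, and was not called without SAM1 replicate 1 (0.0623), SAM1 replicate 3 (0.115), SAM2 replicate 1 (0.0983) or SAM2 replicate 2 (0.139). Per kb of merged exons, *Eif3j1* at 92.0 and *Eif3m* at 329 normalized counts in empty vector were the lowest of the 13, and the others ran from 918 to 3819. These levels depend on the length used. Per kb of the canonical transcript, the isoform that the annotation marks as representative, *Eif3j1* was at 117.5 and *Eif3m* at 2036. The others then ran from 2735 to 8379, and *Eif3e* moved from 918 to 6821, so only *Eif3j1* stood far apart by both lengths. *Eif3j1* shares 2379 bases at 99.4% identity with *Eif3j2*, not analysed here, and *Eif3m* 1125 bases at 98.5% with a pseudogene, so both levels are uncertain.

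**Figure D3:**
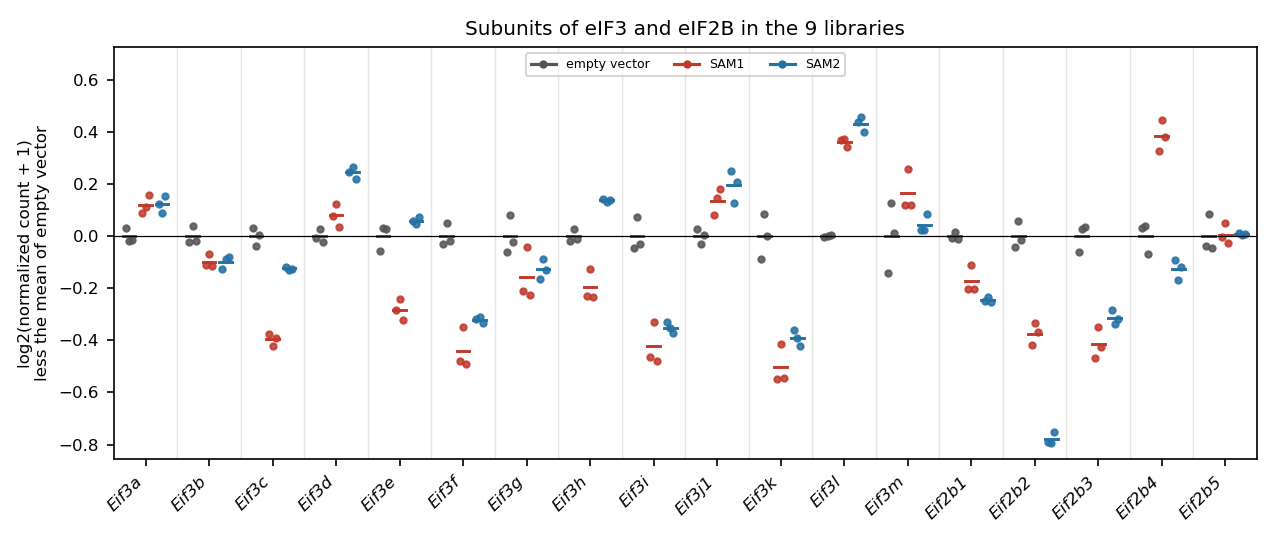
Each point is the log2(normalized count + 1) of a library less the mean of the 3 empty vector libraries (vertical axis), for the 13 eIF3 and 5 eIF2B subunits (horizontal axis), in empty vector (grey), SAM1 (red) and SAM2 (blue), with lines at group means. *Eif3l* lies above and *Eif3k*, *Eif3f* and *Eif3i* lie below empty vector in both lines, and *Eif2b2* and *Eif2b4* differ most between the lines.

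The cap-binding and helicase factors included the strongest fall of all 60. *Eif4e3*, an atypical cap-binding paralog, lies at chr6:99602081-99643784, minus strand. It read 46.0, 52.5 and 33.9 normalized counts in empty vector, 5.69, 5.92 and 5.86 in SAM1 and 16.8, 8.35 and 6.50 in SAM2, from 45, 50 and 29 reads in empty vector, 6 in each SAM1 library and 17, 9 and 7 in SAM2. All SAM libraries were below empty vector (-2.70 ± 0.32 and -2.05 ± 0.32, adjusted p = 4.49e-06 and 6.83e-05), though at so few reads the fold change on the log2(value + 1) scale understates the change. *Eif4e*, the main cap-binding protein, read 7119, 7547 and 7472 normalized counts in empty vector, 6452, 6679 and 6389 in SAM1 and 6571, 6407 and 6466 in SAM2. Its SAM libraries lay below empty vector without overlap (-0.18 ± 0.031 and -0.19 ± 0.031, adjusted p = 0.000137 and 0.000117), and in SAM1 the call was lost with equal sums (-0.039, adjusted p = 0.295) and after quantile normalization (-0.060, adjusted p = 0.113). *Eif4e2*, which binds caps without engaging eIF4G and represses translation, read 8344, 8065 and 8265 normalized counts in empty vector, 6219, 6413 and 6399.5 in SAM1 and 6692, 6712 and 6561 in SAM2. Both lines were lower without overlap (-0.37 ± 0.027 and -0.31 ± 0.027, adjusted p = 3.63e-08 and 3.54e-07). Per kb of merged exons, empty vector held 1211 normalized counts of *Eif4e*, 735 of *Eif4e2* and 15.3 of *Eif4e3*. Per kb of the canonical transcript these were 1477, 5242 and 17.1. The order of *Eif4e* and *Eif4e2* thus depended on the length used, while *Eif4e3* was lowest by both.

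The helicase *Eif4a1* read 7250.1, 7665 and 7793 normalized counts in empty vector, 9154, 9578 and 9149.5 in SAM1 and 9414, 9310.3 and 8845 in SAM2. It rose in both lines, whose libraries overlapped (0.30 ± 0.036 and 0.28 ± 0.036, adjusted p = 5.45e-06 and 1.07e-05), while its paralog *Eif4a2* gave -0.037 in SAM1 (adjusted p = 0.357), which turned to 0.105 with equal sums and 0.0887 after quantile normalization, and -0.14 in SAM2 (adjusted p = 0.00252). *Eif4b*, a helicase cofactor, read 28522, 28867 and 27879 normalized counts in empty vector, 29711, 29606 and 30314 in SAM1 and 40135, 40082 and 40536 in SAM2. SAM2 stood far above the other libraries (0.50 ± 0.025, adjusted p = 1.11e-09), and SAM1 lay just above empty vector (0.072 ± 0.025, adjusted p = 0.0197, and 0.075 without empty vector replicate 3 or 0.0799 without SAM1 replicate 3). *Eif4h*, a related cofactor, fell with log2 fold changes of -0.30 and -0.21 in SAM1 and SAM2, and in SAM2 the call was lost after quantile normalization (-0.065, adjusted p = 0.0716). *Eif4g2*, an eIF4G-like scaffold without the cap-binding partner site, fell with log2 fold changes of -0.17 and -0.18 in the deposited scaling but turned to 0.181 and 0.218 after quantile normalization. *Eif4a3*, a helicase of the exon junction complex rather than of initiation, read 5302, 5639 and 5407 normalized counts in empty vector, 4629, 4859 and 4504 in SAM1 and 4615, 4593 and 4507 in SAM2. Libraries of both lines were lower than those of empty vector (-0.22 ± 0.035 and -0.25 ± 0.035, adjusted p = 5.86e-05 and 2.21e-05).

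The regulators of eIF4E were higher in SAM2 than in SAM1 for *Eif4ebp1* and *Eif4ebp2*. *Eif4ebp1*, which holds eIF4E away from eIF4G until it is phosphorylated, read 11032, 11601 and 11369 normalized counts in empty vector, 7590.4, 8226 and 7482 in SAM1 and 10517, 10785 and 10513 in SAM2. SAM1 was low (-0.55 ± 0.036, adjusted p = 1.36e-08), and SAM2 lay just below empty vector (-0.10 ± 0.036, adjusted p = 0.0308), a value that turned to 0.008 with equal sums and lost its call without empty vector replicate 2 or 3 or SAM2 replicate 1 or 3 (adjusted p from 0.0757 to 0.0898). The line difference was 0.45 ± 0.036 (adjusted p = 2.4e-07). *Eif4ebp2*, its paralog, read 9652, 9448 and 8890.2 normalized counts in empty vector, 9680.4, 8921 and 9767 in SAM1 and 10118, 10055 and 10319.7 in SAM2. SAM1 overlapped empty vector (0.019 ± 0.039, adjusted p = 0.674), and SAM2 lay above it (0.12 ± 0.039, adjusted p = 0.0123, and 0.0694 without empty vector replicate 3). *Eif4enif1*, which carries eIF4E into the nucleus, gave -0.15 in SAM1 (adjusted p = 0.00708) and -0.049 in SAM2 (adjusted p = 0.329). Of the kinases that phosphorylate eIF4E, *Mknk1* read -0.32 in SAM1 and 0.67 in SAM2 as log2 fold changes (adjusted p = 1.39e-06 and 1.17e-09), and *Mknk2* 0.80 and 0.73 (adjusted p = 1.09e-11 and 4.27e-11).

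Of the elongation factors, *Eef1a1*, which brings aminoacyl-tRNA to the ribosome, read 109184, 109596 and 111150.0 normalized counts in empty vector, 90884, 95772 and 89879 in SAM1 and 101905, 103298 and 99077 in SAM2. The 3 levels did not overlap (-0.26 ± 0.031 in SAM1 and -0.12 ± 0.031 in SAM2, adjusted p = 5.63e-06 and 0.00414), and after quantile normalization SAM1 was not called (-0.042, adjusted p = 0.505) and SAM2 turned to 0.173, while with equal sums SAM2 was not called (-0.013, adjusted p = 0.732). Its transcript matched 13 other annotated genes, 9 of them pseudogenes, so its count is uncertain. Such near-identical copies were found for 20 of the 59 factors searched, so this limit is wider than the genes named with it. It also covers *Eef2*, *Eef1g*, *Eif2s1*, *Eif2s2*, *Eif2s3x*, *Eif3e*, *Eif3h*, *Eif4a1*, *Eif4a3*, *Eif4e* and *Eif5a*. Shorter longest matches, of 112 to 278 bases, were found for *Eef1akmt3*, *Eef1b2*, *Eef2kmt*, *Eif4b* and *Eif4g2*. The exchange subunits *Eef1b2*, *Eef1d* and *Eef1g* gave log2 fold changes from -0.056 to 0.046 over both lines and passed in neither. After quantile normalization *Eef1b2* in SAM1 was called at 0.167, and with equal sums *Eef1d* in SAM1 at 0.124. On the deposited scaling, 95% intervals in SAM1 ran from -0.13 to 0.11, from -0.12 to 0.088 and from -0.039 to 0.12 in that order. *Eef1e1*, which despite its symbol belongs to the aminoacyl-tRNA synthetase complex, read 3343, 3495 and 3500.0 normalized counts in empty vector, 2651, 2911 and 2653 in SAM1 and 2651, 2631 and 2669 in SAM2. Both lines were lower without overlap (-0.33 ± 0.039 and -0.38 ± 0.039, adjusted p = 4.67e-06 and 1.52e-06).

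*Eif5a*, the hypusine-bearing factor, read 21882, 22947 and 23171 normalized counts in empty vector, 26743, 27496 and 26283 in SAM1 and 26835, 27503 and 26573 in SAM2. SAM1 and SAM2 overlapped each other and lay above empty vector (0.24 ± 0.03 and 0.25 ± 0.03, adjusted p = 6.98e-06 and 6.06e-06). *Eif5a2*, its paralog, was present in empty vector at 266 normalized counts per kb of merged exons beside 4395 for *Eif5a*, and it gave -0.061 in SAM1 (adjusted p = 0.34) and -0.27 in SAM2 (adjusted p = 0.000757). Of the enzymes that make hypusine, *Dhps* gave 0.043 and -0.12 (adjusted p = 0.41 and 0.027) and *Dohh* 0.18 and -0.048 (adjusted p = 0.0108 and 0.466).

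Enzymes that modify the elongation factors held extremes in both directions. *Eef2kmt*, the lysine methyltransferase of eEF2 (chr16:5057131-5073888, minus strand), read 724, 754 and 655 normalized counts in empty vector, 364, 369 and 358 in SAM1 and 337, 342 and 336 in SAM2. All 6 SAM libraries lay below empty vector, at 0.511 times its mean in SAM1 and 0.476 times in SAM2 (-0.96 ± 0.059 and -1.07 ± 0.059, adjusted p = 6.33e-09 and 3.07e-09). It shares 4804 exon bases with the antisense gene *Alg1*, which changed less, at -0.26 in SAM1 and -0.26 in SAM2. *Eef1akmt1*, a lysine methyltransferase of eEF1A (chr14:57785580-57809069, minus strand), read 848, 929.6 and 953 normalized counts in empty vector, 1361, 1448 and 1247 in SAM1 and 1239, 1273 and 1201 in SAM2. Both lines were higher without overlap (0.57 ± 0.059 and 0.44 ± 0.059, adjusted p = 1.21e-06 and 1.53e-05). Among the other eEF1A methyltransferases *Eef1akmt2* fell with log2 fold changes of -0.51 and -0.32, *Eef1aknmt* with -0.17 and -0.38, and *Eef1akmt4* gave -0.13 in SAM1 (adjusted p = 0.0466, a call lost without any library but SAM1 replicate 1, at 0.0525 to 0.195) and -0.073 in SAM2 (adjusted p = 0.232). *Eef2k*, the kinase that inhibits eEF2, fell with log2 fold changes of -0.38 and -0.43 in SAM1 and SAM2.

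The lines were also compared directly. In SAM2 against SAM1, 20 factors were higher and 9 lower, 48.3% of the factors beside 60.3% of all genes (31.1% higher and 29.2% lower), with a median of 0.042 beside -0.0075. The SAM2 libraries lay wholly above those of SAM1 for 23 factors and wholly below for 15 (backgrounds 34.8% and 33.4% of genes). Equal sums changed the split of the calls to 13 higher and 16 lower, where 33.4% of all genes were lower, and quantile normalization to 15 higher and 19 lower, where 28.8% were. *Eif4g3*, a paralog of the scaffold *Eif4g1* (chr4:137720333-137935819, plus strand), read 2367, 2159.6 and 2189 normalized counts in empty vector, 1913, 1730.1 and 1958 in SAM1 and 2905, 2918 and 2942 in SAM2. SAM1 was below and SAM2 above every empty vector library (-0.26 ± 0.048 and 0.39 ± 0.048, adjusted p = 0.000256 and 9.23e-06), and the line difference, 0.65 ± 0.048 (adjusted p = 1.12e-07), was the largest past the threshold. *Eif4g1*, the main scaffold, went the other way: it read 59817, 58217 and 57488 normalized counts in empty vector, 63312, 61748 and 64079 in SAM1 and 52566, 51848 and 53154 in SAM2. SAM1 was above (0.11 ± 0.027, adjusted p = 0.00291) and SAM2 below empty vector (-0.16 ± 0.027, adjusted p = 0.00019), the latter turning to 0.118 after quantile normalization. The lines differed by -0.26 ± 0.027 (adjusted p = 2.77e-06). Per kb of merged exons empty vector held 7535 normalized counts of *Eif4g1* and 196 of *Eif4g3*.

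*Eif6*, which keeps 60S subunits free and is needed for their biogenesis, read 8221, 9499.9 and 8293 normalized counts in empty vector, 9343, 10285 and 9098 in SAM1 and 6849.9, 7249 and 7114 in SAM2. SAM1 overlapped empty vector (0.14 ± 0.056, adjusted p = 0.0321), and this call was lost without empty vector replicate 1, empty vector replicate 3 or SAM1 replicate 2 (adjusted p = 0.116, 0.132 and 0.127). SAM2 lay below all other libraries (-0.29 ± 0.056, adjusted p = 0.000393), and the line difference was -0.44 ± 0.056 (adjusted p = 1.91e-05). *Eef2*, the translocase, read 142868, 136146 and 137000.0 normalized counts in empty vector, 132173, 128020.0 and 131519 in SAM1 and 159756, 159781 and 156632 in SAM2. SAM2 was above every other library (0.20 ± 0.029, adjusted p = 4.73e-05), while SAM1 was below empty vector (-0.087 ± 0.029, adjusted p = 0.0164, and 0.0541 without empty vector replicate 1), a direction that turned to 0.0556 with equal sums and to 0.196 after quantile normalization. The line difference was 0.28 ± 0.029 (adjusted p = 2.78e-06). *Eif2s2* and *Eif3h* were also lower in SAM1 and higher in SAM2, *Eif2s2* at -0.25 and 0.11 and *Eif3h* at -0.20 and 0.14, and line differences were 0.36 ± 0.046 and 0.33 ± 0.031 (adjusted p = 2.11e-05 and 1.02e-06). In SAM1 *Eif3h* was not called with equal sums (-0.054, adjusted p = 0.158) or after quantile normalization (-0.032, adjusted p = 0.393), nor *Eif2s2* with equal sums (-0.10, adjusted p = 0.0677). The rise of *Eif2s2* in SAM2 (adjusted p = 0.0497) was at the threshold and lost its call by edgeR (adjusted p = 0.06), by DESeq2 (adjusted p = 0.0578) and without any of 6 libraries, namely empty vector replicate 1 or 3, SAM1 replicate 1 or any SAM2 replicate (adjusted p from 0.0649 to 0.221).

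**Figure D4:**
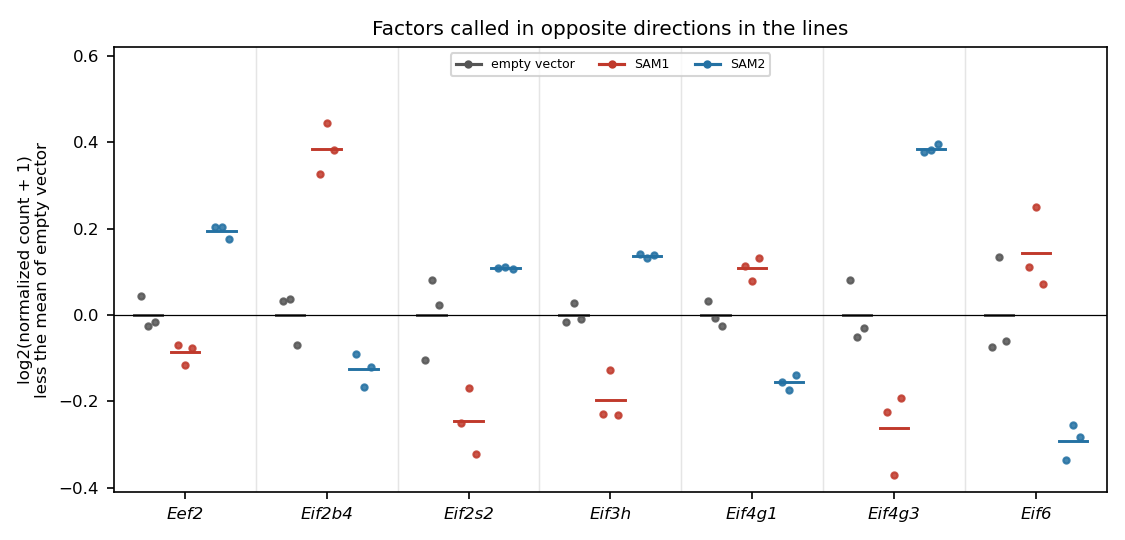
Each point is the log2(normalized count + 1) of a library less the mean of empty vector (vertical axis) for the 7 factors called in opposite directions in the lines (horizontal axis), in empty vector (grey), SAM1 (red) and SAM2 (blue), with lines at group means. *Eif2b4*, *Eif4g1* and *Eif6* are higher and *Eef2*, *Eif2s2*, *Eif3h* and *Eif4g3* lower in SAM1 than in SAM2; for *Eef2* the fall in SAM1 turns with equal sums or quantile normalization, and for *Eif4g1* the fall in SAM2 turns with quantile normalization.

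Genes near a factor often moved with it. Positions were found for 59 of the 60 factors in GRCm39, and for each the median log2 fold change of the other listed genes within 5 Mb was taken. Across the 59 factors, the factor's own value and this median had a Spearman rho of 0.312 in SAM1 and 0.491 in SAM2 (Pearson's r of 0.299 and 0.382, or 0.412 and 0.563 without *Eif4e3*), a description in which all points share the 9 libraries and close factors share neighbours. Of the 9 factors called higher in both lines, 7 lay where the neighbours were also higher in both: *Eef1akmt1* on chromosome 14, *Eif3d*, *Eif3l* and *Eif4b* on 15, *Eif4a1* and *Eif5a* on 11 and *Eif3j1* on 2. For *Eef1akmt1* the neighbour medians were 0.57 in SAM1 and 0.65 in SAM2, close to those of its whole chromosome (0.53 and 0.57). For *Eif4a1* they were 0.35 and 0.41, and for *Eif5a*, on the same stretch of the chromosome, 0.33 and 0.41, so both factors rose no more than the genes around them. *Eif3l* rose above its neighbours (0.15 and 0.30), as did *Eif4b* in SAM2 (0.34) but not in SAM1 (0.31). The exceptions, *Eif1ad* and *Eif3a* on chromosome 19, rose where neighbours were lower in both lines.

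Of the 30 factors with a position that were called lower in both lines, 22 had neighbours that were lower in both and 5 had neighbours that were higher in both (*Eef1a1*, *Eif2s3x*, *Eif4e*, *Eif4e2* and *Eif4ebp1*). For this count and the one above of factors higher in both, the share among all listed genes was not taken, so they have no background. All 6 factors on chromosome 7, whose median was -0.27 in SAM1 and -0.24 in SAM2, were called lower in both lines, namely *Eef1akmt2*, *Eef2k*, *Eif3c*, *Eif3f*, *Eif3k* and *Eif4g2*, though *Eif3c* in SAM2 and *Eif4g2* in both lines turned after quantile normalization. Over all listed genes 26.4% were called lower in both lines, and the share on chromosome 7 itself was not counted. On chromosome 15, whose median was 0.19 and 0.32, 3 of 6 were higher in SAM1 and 4 of 6 in SAM2 (37.3% and 35.2% of all listed genes), while *Eif3e* (0.35 and 0.53 for its neighbours) and *Eif3h* (0.28 and 0.41) lay well below the genes around them. Of the largest falls, 3 lay where neighbours moved little: neighbour medians were 0.011 and -0.066 for *Eef2kmt*, -0.016 and 0.036 for *Eif2d* and -0.10 and 0.10 for *Eif4e3*. Taken against their neighbours, the 59 factors still lay lower, 41 of 59 in SAM1 and 39 of 59 in SAM2, by medians of -0.095 and -0.091. The part of these regional shifts in the values of single factors was not tested.

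**Figure D5:**
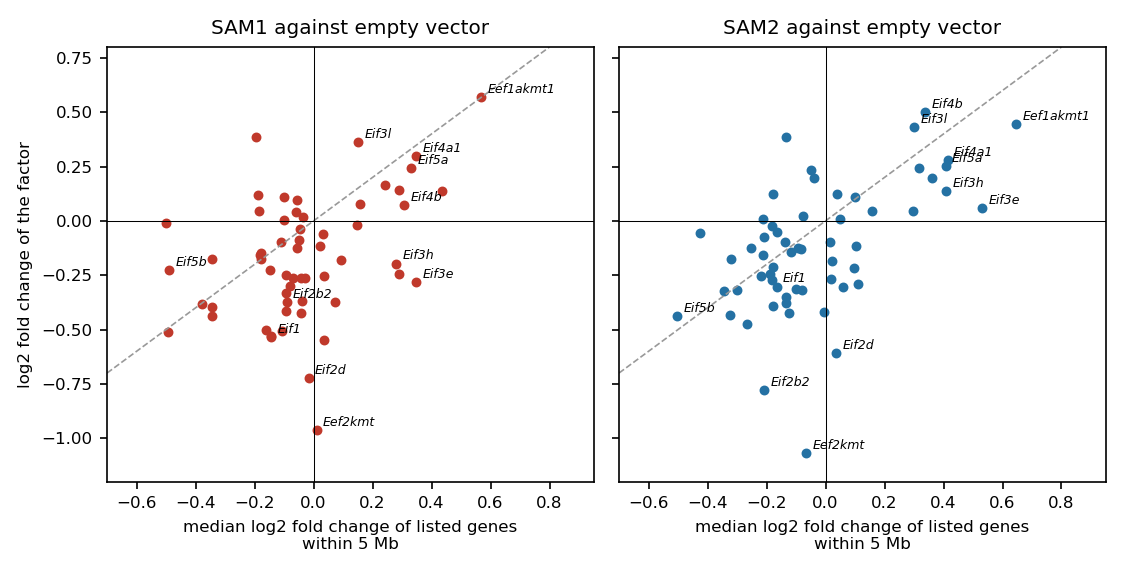
Log2 fold change against empty vector of each factor (vertical axis) beside the median of the other listed genes within 5 Mb of it (horizontal axis), in SAM1 (red) and SAM2 (blue), with the line of equal values dashed and some factors named; *Eif4e3* (-2.70 and -2.05) lies below the range drawn. *Eef1akmt1*, *Eif4a1* and *Eif5a* lie near the dashed line at the upper right, and *Eef2kmt* and *Eif2d* lie far below it near a neighbour median of zero.

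Other genes of the same pathway do not carry an eIF or eEF name. Of 23 cytosolic partners 7 were higher and 11 lower in SAM1, and 9 higher and 7 lower in SAM2. The share called, 78.3% and 69.6%, was near that of all listed genes, 74.3% and 70.5%. The largest change was that of *Gspt2*, at log2 fold changes of 4.33 and 1.74 from a mean of only 6.12 normalized counts in empty vector. *Larp1*, which binds TOP mRNAs, rose by 0.28 and 0.50 on the log2 scale in SAM1 and SAM2 (adjusted p = 2.91e-06 and 1.11e-08), and *Pabpc1*, the poly(A)-binding partner of eIF4G, gave -0.29 in SAM1 (adjusted p = 1.22e-07) and -0.0017 in SAM2 (adjusted p = 0.954). *Pdcd4*, an inhibitor of eIF4A, gave -0.17 in SAM1 and 0.17 in SAM2 (adjusted p = 0.00158 and 0.00236). Of the 9 mitochondrial translation factors examined 5 were higher and 3 lower in SAM1, and 3 higher and 4 lower in SAM2 (88.9% and 77.8% called, beside the same shares of all genes). *Mtif2*, the mitochondrial initiation factor, fell with log2 fold changes of -0.65 and -0.47, *Tufm*, the mitochondrial counterpart of eEF1A, with -0.49 in both lines, and *Gfm1*, a counterpart of eEF2, rose by 0.40 and 0.28.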

How the data were processed

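PolyA+ RNA of mouse embryonic fibroblasts was sequenced by the authors in pairs of 43 bases (NextSeq 500, directional kit) in 9 libraries, grouped by their titles. Per the labels and the methods, the authors used FastQC 0.11.0, TopHat2 with Bowtie2 and SAMtools on GRCm39 (3 mismatches and 20 multihits allowed), counted reads with HTSeq on Gencode vM29 and normalized the counts with DESeq2 size factors. What was deposited is thus a normalized signal rather than raw counts, with genes kept above 10 in at least 30% of libraries, which all 15184 rows met. The strand setting of the counting was not given in the sources used here. No column was left out (0 columns not used).

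Groups were compared with limma 3.58.1 (trended empirical Bayes, in R 4.3.3) on log2(value + 1), fitted on all genes, with Benjamini-Hochberg adjustment over all 15184 and a threshold of 0.05. SAM1, SAM2 and empty vector entered 1 fit, from which all 3 pairs were contrasted, and a second fit pooled the lines. All values of all libraries were whole multiples of the worth of 1 read (100% within 0.001 of a read), and edgeR 4.0.16 and DESeq2 1.42.0 were run as alternatives on the recovered reads. For SAM2 replicate 1 that step lies close to 1, so its recovery could be checked less strictly. Because each library holds at least 41759636 reads, counting error is small except for *Eif4e3* and *Eef1akmt3*. Any 2 replicates differed by more than counting noise, so none was merged, but the excess was unequal. Chi-squared per gene, near 1 for counting noise alone, was 10.7 to 12.9 between empty vector replicates. It was 1.45 to 9.3 between those of SAM1 and 1.53 to 2.28 between those of SAM2. Some replicates of the lines were thus little more apart than repeats of 1 sample. The limma fit nevertheless took 1 spread per gene for all 3 groups. The scripts were tested on simulated data.

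Positions, overlaps and exon lengths are from GRCm39 with GENCODE vM39 (59 of 60 factors found once), near-identical transcripts from blastn 2.17.0+ (95% identity over 100 bases), and promoter windows from RefSeq. Every factor could be named, and values in every library are given for the 6 largest rises and 6 largest falls past the threshold in each line, the 6 largest line differences, the factor with the smallest adjusted p in each role group and line, and a short fixed list. The library values of *Eif4g1* were added after its values were seen. Members and gene lists were chosen with earlier results of these data known. Alternatives were the pseudocount, a filter, quantile normalization, equal sums, TMM, no trend, a replicate block, the count tests and leaving out each library.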

Additional observations from a re-analysis of the deposited data

Results flagged for a closer look

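The effect against empty vector differed between the lines SAM1 and SAM2 for 29 of the 60 factors, by the limma test of the line difference itself (adjusted p below 0.05 over all listed genes, where 60.3% of all genes passed). Both effects use the same empty vector libraries, so the test compares the 3 SAM2 libraries with the 3 SAM1 libraries.

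For 20 factors the log2 value was higher in SAM2 than in SAM1. Among initiation factors on the cap and the mRNA the difference, SAM2 minus SAM1, was 0.65 for *Eif4g3*, 0.45 for *Eif4ebp1*, 0.43 for *Eif4b*, 0.11 for *Eif4ebp2*, 0.087 for *Eif4h* and 0.069 for *Eif4e2*. Among eIF3 subunits it was 0.34 for *Eif3e*, 0.33 for *Eif3h*, 0.27 for *Eif3c*, 0.17 for *Eif3d*, 0.12 for *Eif3f* and 0.069 for *Eif3l*. Among factors of the initiator tRNA and start codon it was 0.36 for *Eif2s2*, 0.23 for *Eif1*, 0.14 for *Eif1ad*, 0.12 for *Eif2d* and 0.088 for *Eif1a*. Among elongation factors and their enzymes it was 0.28 for *Eef2*, 0.20 for *Eef1akmt2* and 0.14 for *Eef1a1*.

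For 9 factors the value was lower in SAM2. The difference was -0.10 for *Eif2s3x*, -0.21 for *Eif5a2*, -0.21 for *Eif5b*, -0.40 for *Eif2b2* and -0.51 for *Eif2b4* among factors of start codon choice, eIF2B and eIF5A. It was -0.11 for *Eif4a2*, -0.26 for *Eif4g1* and -0.44 for *Eif6* among cap and subunit-joining factors, and -0.20 for *Eef1aknmt*. The smallest of these differences were fragile: those of *Eif1a*, *Eif2d*, *Eif3f*, *Eif3l*, *Eif4e2*, *Eif4ebp2* and *Eif4h* lost their call with equal sums and after quantile normalization, which turned *Eif3l* to -0.0048, and each of them and *Eif4a2* lost its call when 1 or more single libraries were left out. The causes were not tested.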

How the results depend on the processing

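Counts of called factors kept within 1.5 times their value except as follows. In SAM1 against empty vector, 21 were higher after quantile normalization and 24 lower with equal sums, and leaving out 1 library gave 8 to 13 higher (8 without SAM1 replicate 2). In SAM2 against SAM1, 19 were lower after quantile normalization, and 13 were higher and 16 lower with equal sums. With the lines pooled, 14 were higher with equal sums, and 4 to 9 when 1 library was left out (5 without empty vector replicate 2 and 4 without replicate 3). The causes were not tested. Scaling also turned the direction of single factors. After quantile normalization the log2 fold change against empty vector in SAM1 became 0.167 for *Eef1b2*, 0.196 for *Eef2*, 0.0051 for *Eif2s3x*, 0.0966 for *Eif3b*, 0.0887 for *Eif4a2* and 0.181 for *Eif4g2*, and in SAM2 0.173 for *Eef1a1*, 0.0405 for *Eif3b*, 0.0233 for *Eif3c*, 0.118 for *Eif4g1* and 0.218 for *Eif4g2*. With the lines pooled it became 0.0655 for *Eef1a1*, 0.0685 for *Eif3b*, 0.268 for *Eif4g1* and 0.200 for *Eif4g2*, and the line difference of *Eif3l* became -0.0048. With equal sums it became in SAM1 0.0168 for *Eef1akmt4*, 0.124 for *Eef1d*, 0.0556 for *Eef2*, 0.0279 for *Eif2s3x*, 0.0446 for *Eif3b* and 0.105 for *Eif4a2*, in SAM2 0.0824 for *Eif2a*, 0.0056 for *Eif3b* and 0.008 for *Eif4ebp1*, and with the lines pooled 0.0251 for *Eif3b*. Without turning, calls were lost with equal sums in SAM1 for *Eef1aknmt*, *Eif2b1*, *Eif2s2*, *Eif3g*, *Eif3h*, *Eif4a3*, *Eif4e*, *Eif4enif1*, *Eif4g2* and *Eif5b*, in SAM2 for *Eef1a1*, *Eif2b4*, *Eif3c*, *Eif3g*, *Eif4a2* and *Eif4g1*, and with the lines pooled for *Eef1a1*, *Eef1aknmt*, *Eif2b1*, *Eif2s3x*, *Eif3c*, *Eif3g*, *Eif4e*, *Eif4g2* and *Eif5b*. After quantile normalization they were lost in SAM1 for *Eef1a1*, *Eif3g*, *Eif3h*, *Eif3j1*, *Eif4e*, *Eif4enif1* and *Eif5b*, in SAM2 for *Eif3g*, *Eif4a2*, *Eif4ebp1* and *Eif4h*, and with the lines pooled for *Eif2s3x*, *Eif3c*, *Eif3g*, *Eif3j1*, *Eif4e*, *Eif4h* and *Eif5b*. Between the lines both scalings lost those of *Eif1a*, *Eif2d*, *Eif3f*, *Eif3l*, *Eif4e2*, *Eif4ebp2* and *Eif4h*, apart from *Eif3l* after quantile normalization, which turned. The count tests, TMM, the filter and the other pseudocount turned no direction of a factor. Nor did leaving out the trend, but 15 calls were lost by it over all comparisons. In SAM1 they were those of *Eif3d*, *Eif3m* and *Eif6*, and in SAM2 those of *Eif2s2*, *Eif3g* and *Eif4ebp1*. The rest were pooled calls or line differences. DESeq2 lost 5 calls, TMM 3, edgeR 2 and the replicate block 3. Any pairing of the libraries by replicate number was weak: deviations from group means correlated at 0.0531 on average for the 9 same-number pairs (0.00237 to 0.117, so all positive) and at -0.0265 for the 18 others (-0.122 to 0.046). A fit with the replicate block called 50 factors in SAM1 (13 higher, 37 lower), 50 in SAM2 (14 and 36), 34 between the lines (23 and 11) and 36 with the lines pooled (7 and 29). Depth limits *Eif4e3* alone among the factors that were called.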
